A study of Rattus norvegicus with 22 samples.

Results

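The 9 genes described here are the members of the Bcl2 family Bcl2, Bcl2l1, Mcl1, Bax, Bak1, Bid, Bad and Bbc3, together with the caspase Casp8. They were taken as a fixed list by gene symbol and not by a rule on their measured values, although earlier results of these data were known. All 9 were found among the 17334 genes listed and among the 12867 genes that passed the filter on low counts. Kidney RNA sequencing data of 22 male PKD/Mhm (Cy/+) rats were used, all 8 months old. Of these rats, 6 were untreated, 6 were given ASC i.p., 6 were given ASC i.v. and 4 were given CM. ASC are human adipose-derived stromal cells, a mesenchymal cell population grown from fat, and CM, by the study's description, is medium conditioned by these cells. Treatment was given once a month for 6 months.

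Every rat of every group, the untreated rats included, was heterozygous for the same missense mutation of Anks6, the gene of the ciliary protein SamCystin, and therefore had polycystic kidneys. No healthy rat was among the samples used here, so all values describe cystic kidneys with and without treatment. The route of the CM is not given in its sample label. RNA was taken from snap-frozen left kidney, so each value is a mean over all cells of the piece of tissue, and fewer cells of a type cannot be told apart from less RNA per cell. The rats carry separate animal numbers in the labels and are taken as separate animals.

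The Bcl2 family controls the mitochondrial route of apoptosis. Anti-apoptotic members such as Bcl2, Bcl2l1 (Bcl-xL) and Mcl1 hold back the pore-forming members Bax and Bak1, which permeabilize the outer mitochondrial membrane and release cytochrome c, and BH3-only members such as Bid, Bad and Bbc3 (Puma) shift this balance towards pore formation. Casp8 is the initiator caspase of death receptors and cleaves Bid, which joins the receptor route to the mitochondrial one. In the kidney these genes are best known from tubular injury and from cystic disease, in which both proliferation and apoptosis of tubular cells have been described.

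Total estimated counts ran from 12195682 to 14734772 per rat, and no 2 rats had a Spearman correlation of their counts under 0.97. Markers of kidney cell types were present throughout, for example Umod of the thick ascending limb at 847 to 4445 TPM and Slc34a1 of the proximal tubule at 228 to 1405 TPM, so the kidney markers of the labelled tissue were found. Some libraries stood apart. The summed level of 6 urothelial genes reached 545 TPM in i.v. ASC rats and was at most 16.7 TPM in any other rat. The mean log2 CPM of 6 fibroblast markers was lowest in 5 rats, at 5.65 to 6.16, against 6.50 to 7.59 in the other 17, and these 5 were i.p. ASC rats 5 and 7, i.v. ASC rats 3 and 9 and CM rat 2. No untreated rat was among them. All 5 have single-digit animal numbers, as do untreated rat 1, i.p. ASC rat 6 and i.v. ASC rat 8, and the labels do not say whether the numbers mark a batch, so the part of a batch in the results was not tested. Results that rest on these 5 rats are given with and without them.

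The 9 genes covered a wide range of levels when compared per length in TPM (transcript copies scaled to a fixed total per rat). Mcl1, a short-lived anti-apoptotic protein, had the highest mean over the 22 rats at 212 TPM, followed by Bcl2l1 at 155 TPM and Bax at 133 TPM. Bak1 at 68 TPM and Bad at 66.1 TPM lay in the middle. Bid at 23.7 TPM, Bbc3 at 21.6 TPM and Casp8 at 17.2 TPM were lower, and Bcl2 itself was lowest at 5.02 TPM. Among the 12867 genes tested, the mean TPM of Mcl1 was above 94.2% of genes and that of Bcl2 above 20.9%. The anti-apoptotic members thus held both ends of the order.

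Most neighbours in this order were separated in nearly every rat. Mcl1 was above Bcl2l1 in 21 of 22 rats, Bcl2l1 above Bax in 19, Bax above Bak1 in 22, Bad above Bid in 22, Bbc3 above Casp8 in 21 and Casp8 above Bcl2 in 22. Bak1 and Bad did not differ beyond their spread, with Bak1 the higher in 11 of 22 rats, and Bid was above Bbc3 in only 15. The order of the group means in TPM was the same in untreated, i.p. ASC and CM rats, and in i.v. ASC rats it differed in that Bad stood above Bak1. Bcl2 rested on 33.9 to 84.2 estimated counts per rat, against 1879 to 3564 for Mcl1, so that its values carry a larger counting error.

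**Figure D1:**
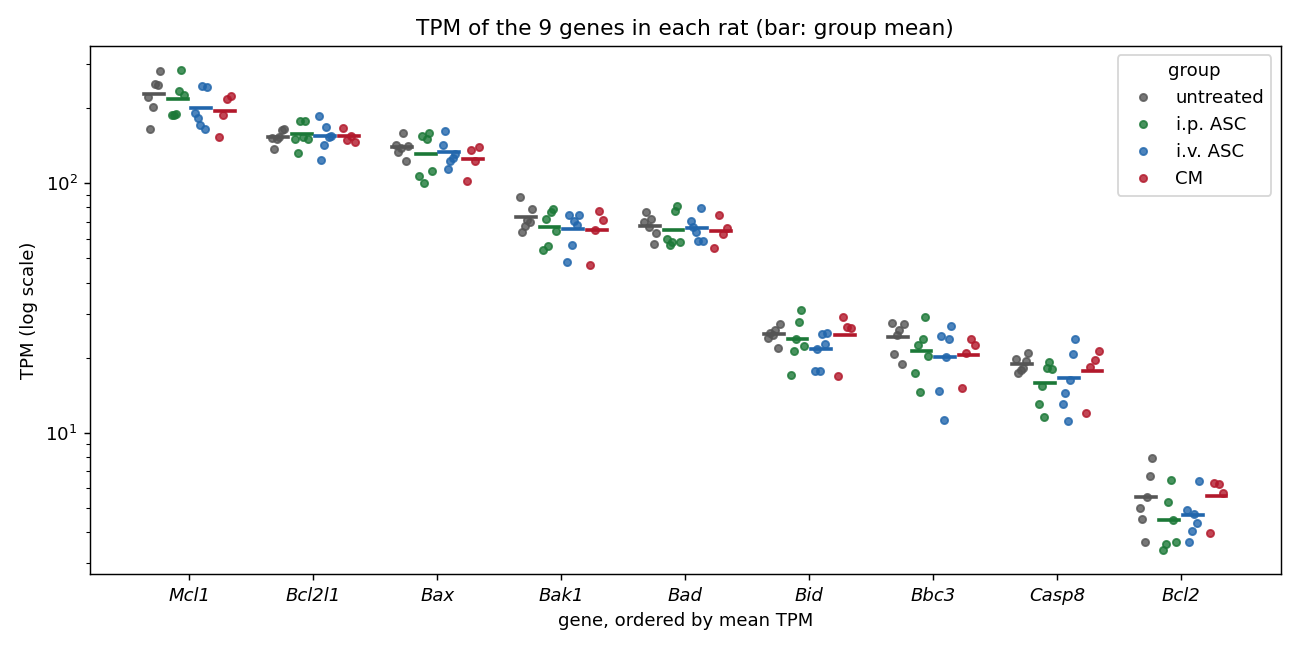
TPM of the 9 genes on a log axis, ordered by mean TPM, with one point per rat coloured by group and a bar at each group mean. The groups overlap for every gene, Mcl1 and Bcl2 lie at the ends of the order, and the lowest points of Bak1, Bbc3 and Casp8 come from treated rats.

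The promoter windows of the genes at the ends of this order are shown because they differ in base composition, followed by those of Bak1 and Bid. The levels of Bak1 and Bid correlated over the 22 rats (r = 0.53), but not without the 5 rats lowest in fibroblast markers (r = 0.12). Each window holds 250 bases before and 50 bases after the gene's start in RefSeq on the rat assembly GRCr8, 5′ to 3′, with matches to 6 motifs in capitals.
Mcl1 promoter, GRCr8 chr2:185907918-185908217, plus strand: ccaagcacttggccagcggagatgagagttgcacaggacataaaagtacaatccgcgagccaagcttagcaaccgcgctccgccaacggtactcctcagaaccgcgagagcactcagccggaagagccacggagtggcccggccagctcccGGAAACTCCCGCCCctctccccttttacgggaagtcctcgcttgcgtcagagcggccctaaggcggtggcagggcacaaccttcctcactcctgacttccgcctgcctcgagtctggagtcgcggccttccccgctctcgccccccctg
Bcl2 promoter, GRCr8 chr13:23366851-23367150, minus strand: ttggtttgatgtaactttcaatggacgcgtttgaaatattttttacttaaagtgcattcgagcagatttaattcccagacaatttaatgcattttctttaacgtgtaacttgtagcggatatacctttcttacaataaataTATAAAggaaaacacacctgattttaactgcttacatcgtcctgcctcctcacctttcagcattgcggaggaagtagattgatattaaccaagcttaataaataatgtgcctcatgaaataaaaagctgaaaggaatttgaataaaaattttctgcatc
Bak1 promoter, GRCr8 chr20:5110925-5111224, minus strand: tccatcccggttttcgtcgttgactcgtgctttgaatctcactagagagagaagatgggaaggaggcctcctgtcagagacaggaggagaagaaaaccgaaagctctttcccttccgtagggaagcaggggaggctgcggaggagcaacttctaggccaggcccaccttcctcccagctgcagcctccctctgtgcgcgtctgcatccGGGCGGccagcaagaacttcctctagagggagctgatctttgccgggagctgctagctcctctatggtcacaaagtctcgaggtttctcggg
Bid promoter, GRCr8 chr4:155808270-155808569, minus strand: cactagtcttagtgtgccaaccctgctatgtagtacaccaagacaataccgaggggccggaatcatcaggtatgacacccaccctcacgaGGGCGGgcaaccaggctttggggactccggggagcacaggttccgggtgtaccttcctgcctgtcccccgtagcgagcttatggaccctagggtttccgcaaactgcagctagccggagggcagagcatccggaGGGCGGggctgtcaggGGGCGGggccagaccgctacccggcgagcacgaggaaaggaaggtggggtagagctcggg
The motifs were searched on both strands as the GC box (GGGCGG), the CCAAT box (CCAAT), the TATA box (TATAAA), the E-box (CACGTG), the p53 half-site and the kappaB motif. The Mcl1 window held 64.3% G and C with 25 CpG dinucleotides, whereas the Bcl2 window held 32.7% with 7, beside medians of 51.7% and 7 over the 33469 windows of this length. The Bcl2 window matched only the TATA box, which 14.2% of all windows hold. The Mcl1 window matched a kappaB motif, held by 7.51% of all windows, and a GC box, held by 33.1%, both on the minus strand, with the GC box starting inside the kappaB motif. Bak1 had 1 GC box and Bid had 3. No CCAAT box (37.5% of all windows), E-box (6.42%) or p53 half-site (7.98%) lay in any of the 6 member windows at hand, and those of Bcl2l1 and Bad, which are not printed, matched no motif. The members without a window are Bax, Bbc3 and Casp8. A match is a description of the letters only.

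The design asks whether the kidneys of treated rats differed from those of untreated rats. None of the 9 genes changed after i.p. ASC, i.v. ASC or CM by the quasi-likelihood test of edgeR, with p-values adjusted by Benjamini-Hochberg over all 12867 genes and a threshold of 0.05. The count stood against 0% of all genes called in each of these comparisons. At an unadjusted p below 0.05, still 0 of 9 members passed, against 3.89% of all genes after i.p. ASC, 8.81% after i.v. ASC and 6.6% after CM. By DESeq2, 0, 28 and 4 of all genes were called in the same order, none of them a member, and edgeR called 11 of all genes after i.v. ASC without i.v. ASC rat 8 and 14 without i.v. ASC rat 14. In a test of any difference among the 4 groups, 11 genes were called (0.0855%) but again 0 of 9 members, also at an unadjusted p below 0.05, where 4.11% of all genes passed. The treated and untreated rats overlapped in log2 CPM for every member in every comparison, against 0.14%, 0.179% and 1.42% of all genes without overlap.

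The intervals bound what could have been missed. Over the 27 combinations of gene and comparison, the 95% intervals of the fold, treated over untreated, lay between 0.66 and 1.38, and the widest belonged to Bcl2. For the other 8 genes they lay between 0.675 and 1.25. A 2-fold difference in either direction was thus outside every interval. In simulated counts with the same groups, 100 genes were changed 2-fold and 100 by a log2 fold of size 2. For i.v. ASC against untreated, 78 of the 100 genes with a 2-fold change were recovered, so smaller changes than these would often go uncalled. The adjusted threshold depends on how many genes change, and the real comparison called none, so this recovery need not hold for the members. With the log2 fold changes this small, their sign was not stable, and 19 of the 27 changed sign under at least 1 other setting or on leaving out 1 rat.

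**Figure D2:**
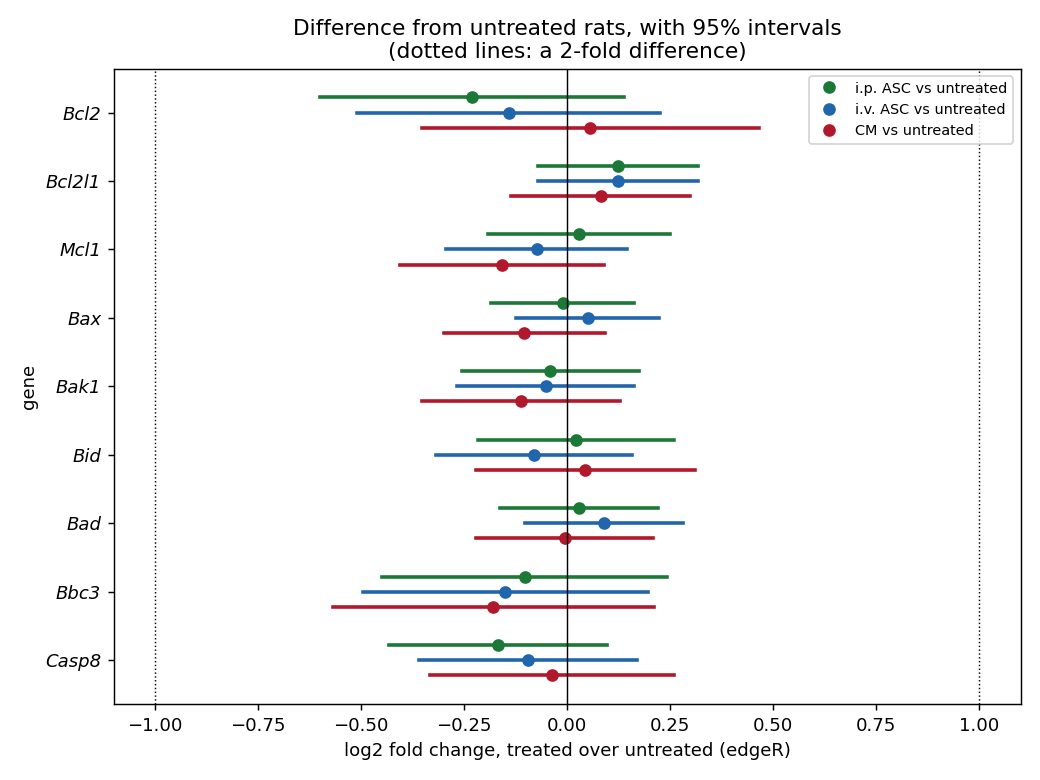
Log2 fold change (edgeR, treated over untreated) of each gene with its 95% interval, coloured by comparison, with dotted lines at a 2-fold difference. All 27 intervals include 0 and all stay inside the dotted lines, from 0.66-fold to 1.38-fold, with Bcl2 and Bbc3 the least precise.

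Among the anti-apoptotic members, Bcl2 (Entrez Gene 24224), which gave the family its name, had lowest, median and highest values of 3.64, 5.24 and 7.93 TPM in untreated rats. They were 3.38, 4.05 and 6.48 TPM after i.p. ASC and 3.63, 4.54 and 6.41 TPM after i.v. ASC, and the 4 CM rats had 3.96, 6.31, 6.23 and 5.73 TPM. The untreated rats covered nearly the whole range, and the highest and one of the low values of all rats came from that group. The log2 fold changes after i.p. ASC, i.v. ASC and CM were -0.23 ± 0.18, -0.14 ± 0.18 and 0.056 ± 0.20 (SE), with adjusted p-values of 0.776, 0.739 and 0.984 by edgeR. Bcl2l1 (24888), whose main protein Bcl-xL is a long-lived anti-apoptotic protein, was at 137, 153 and 165 TPM in untreated rats (lowest, median and highest). After i.p. ASC these were 132, 152 and 178 TPM, after i.v. ASC 123, 154 and 186 TPM, and the CM rats had 167, 149, 155 and 147 TPM. The medians of the 4 groups were almost the same, and the rats of the i.v. ASC group spread the most, with both the lowest and the highest value of all 22 rats. In the same order its log2 fold changes were 0.12 ± 0.093, 0.12 ± 0.093 and 0.081 ± 0.10 (SE), and the adjusted p-values were 0.773, 0.576 and 0.917. Mcl1 (60430) had 164, 235 and 281 TPM as lowest, median and highest values without treatment. It had 188, 208 and 285 TPM after i.p. ASC, 165, 187 and 245 TPM after i.v. ASC and 153, 188, 218 and 224 TPM in the CM rats. The groups overlapped over most of their range, with the lowest value in CM rat 2 and the highest in i.p. ASC rat 16. Its log2 fold changes were 0.029 ± 0.11, -0.074 ± 0.11 and -0.16 ± 0.12 (SE), with adjusted p-values of 0.95, 0.774 and 0.828, and the sign of the i.p. ASC value turned on the TPM scale.

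Of the pore-forming members, Bax (24887), which moves from the cytosol to mitochondria when activated, was at 123, 139.8 and 158 TPM in untreated rats (lowest, median and highest). It was at 101, 131 and 159 TPM after i.p. ASC and 114, 129 and 162 TPM after i.v. ASC, and the CM rats had 103, 136, 123 and 139 TPM. In TPM the i.p. ASC rats lay on both sides of the untreated range, with 3 below all untreated rats and 1 above. On log2 CPM, i.p. ASC rats 7 and 17 (5.762 and 5.77) lay below the untreated range of 5.805 to 6.093. There, i.p. ASC rats 6 and 16 (6.227 and 6.099) lay above it. Log2 fold changes were -0.011 ± 0.083, 0.050 ± 0.083 and -0.10 ± 0.094 (SE) after i.p. ASC, i.v. ASC and CM, with adjusted p-values of 0.977, 0.808 and 0.869. Bak1 (116502), which resides in the outer mitochondrial membrane, ranged over 63.9, 70.8 and 87.9 TPM in untreated rats, again as lowest, median and highest. The values were 54.1, 68.3 and 78.7 TPM after i.p. ASC, 48.2, 69 and 74.7 TPM after i.v. ASC and 47.2, 64.9, 77.5 and 71.4 TPM in the CM rats. Untreated rat 1 was the highest of all rats, and the 5 lowest rats were exactly the 5 with the lowest fibroblast markers, at 47.2 to 56.7 TPM against 63.9 to 87.9 TPM in the other 17, while on log2 CPM 4 of these were among the 5 lowest. The log2 fold changes were -0.041 ± 0.10, -0.053 ± 0.10 and -0.11 ± 0.12 (SE), with adjusted p-values of 0.928, 0.842 and 0.884. Without those 5 rats the log2 fold changes of Bak1 were 0.036, 0.056 and -0.024, so the first and the second turned sign and all remained uncalled.

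Among the BH3-only members, Bid (64625), the substrate of Casp8, was at 21.8, 24.9 and 27.3 TPM in untreated rats as lowest, median and highest values. It was at 17, 23 and 30.9 TPM after i.p. ASC, 17.6, 22.1 and 25.1 TPM after i.v. ASC and 16.9, 29.2, 26.6 and 26.4 TPM in the CM rats. Treated rats lay on both sides of the untreated ones in the i.p. ASC and CM groups. Of the 5 rats with the lowest fibroblast markers, 4 were among the 5 lowest for Bid, in TPM and in log2 CPM. Without the 5 rats the log2 fold change of Bid after i.v. ASC was 0.062. Log2 fold changes were 0.021 ± 0.11, -0.080 ± 0.11 and 0.044 ± 0.13 (SE), with adjusted p-values of 0.969, 0.773 and 0.981. Bad (64639), which is held inactive by phosphorylation under survival signals, had 57.2, 68.3 and 76.7 TPM in untreated rats, 56.4, 59 and 81.4 TPM after i.p. ASC and 58.7, 65.4 and 79.6 TPM after i.v. ASC as lowest, median and highest values. The CM rats had 54.8, 74.6, 62.8 and 66.2 TPM. It was the most even of the BH3-only members, with all 22 rats within a 1.49-fold range of TPM. Its log2 fold changes were 0.029 ± 0.092, 0.090 ± 0.092 and -0.0061 ± 0.10 (SE), and the adjusted p-values were 0.943, 0.673 and 0.998. Bbc3 (317673), a target of p53, was at 18.8, 25.3 and 27.5 TPM in untreated rats. It was at 14.6, 21.4 and 29.2 TPM after i.p. ASC and 11.2, 22 and 26.7 TPM after i.v. ASC, and the CM rats had 15.1, 20.9, 23.7 and 22.5 TPM. This was the most variable of the 9 genes, with a 2.6-fold range of TPM over the 22 rats, and the 5 lowest values came from the same 5 rats as for Bak1, at 11.2 to 17.4 TPM against 18.8 to 29.2 TPM, with 4 of these among the 5 lowest on log2 CPM. The log2 fold changes were -0.10 ± 0.17, -0.15 ± 0.17 and -0.18 ± 0.19 (SE), with adjusted p-values of 0.883, 0.702 and 0.889. Without the 5 rats they were 0.0016, 0.082 and -0.11.

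Casp8 (64044) was evenly expressed in untreated rats, with lowest, median and highest values of 17.4, 18.8 and 20.8 TPM. The treated groups spread further, with 11.6, 16.7 and 19.2 TPM after i.p. ASC, 11.2, 15.4 and 23.9 TPM after i.v. ASC and 12, 18.3, 19.6 and 21.2 TPM in the CM rats. The 5 rats with the lowest fibroblast markers were again the 5 lowest, at 11.2 to 13 TPM against 14.4 to 23.9 TPM in the other 17, and here this also held on the log2 CPM scale, at 4.16 to 4.38 against 4.52 to 4.95. The log2 fold changes were -0.17 ± 0.13, -0.095 ± 0.13 and -0.037 ± 0.14 (SE), with adjusted p-values of 0.773, 0.758 and 0.986. Without the 5 rats they were -0.058, 0.058 and 0.077. The part of cell composition in these low values was not tested.

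Ratios of an effector to a guardian within a rat, taken in TPM, are given as a description. The ratio of Bax to Bcl2 was 26.9 ± 7.76 (SD, n = 6) without treatment, 30.6 ± 8.67 (SD, n = 6) for i.p. ASC, 29.6 ± 8.01 (SD, n = 6) after i.v. ASC and 22.9 ± 2.74 (SD, n = 4) after CM. In every group the lowest and highest rats lay within 17.7 and 44.6, and the untreated range of 17.7 to 38.2 took in all 4 CM rats. The ratio of Bak1 to Mcl1 was nearly the same in all groups, at 0.328 ± 0.0536, 0.309 ± 0.04, 0.333 ± 0.0656 and 0.332 ± 0.0223 in the same order (SD). The ranges of all groups overlapped for both ratios.

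No member passed the test between groups, but several followed each other from rat to rat. Of the 36 pairs of members, 10 correlated over the 22 rats in log2 CPM (two-sided permutation test of Pearson's r with 100000 permutations, adjusted over the 36 pairs), 8 positively and 2 negatively. The share among pairs of other genes was not computed, so neither this count nor the pairs named below are shown to be particular to these genes. By Spearman's rho 4 pairs passed, all of them among the 10. With the group means subtracted, 10 pairs passed as well, the same number as without this step. On log2(TPM + 1) 18 pairs passed and none was negative. Without i.v. ASC rat 3, one of the 5 rats lowest in fibroblast markers, 5 pairs passed.

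Bax, Bak1 and Bbc3, both pore formers of the list and a BH3-only activator of them, formed the core. Bak1 and Bbc3 correlated with r = 0.75 (permutation p = 0.00011, adjusted 0.00198) and rho = 0.85 (permutation p = 1e-05, adjusted 0.00036), where the p of rho is the smallest that these permutations can give. Bax and Bak1 correlated with r = 0.62 (permutation p = 0.00241, adjusted 0.0174) and rho = 0.64 (permutation p = 0.00198, adjusted 0.0203). For Bax and Bbc3 the values were r = 0.58 (permutation p = 0.00515, adjusted 0.0265) and rho = 0.69 (permutation p = 0.00061, adjusted 0.011). Within the untreated rats alone r was 0.80, 0.81 and 0.93 for these pairs, and it was also positive within the i.p. ASC rats (0.84, 0.89 and 0.79) and the i.v. ASC rats (0.70, 0.53 and 0.57). Without the 2 rats farthest from the median, r was 0.70, 0.46 and 0.59.

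Without the 5 rats lowest in fibroblast markers, the 3 pairs of this core still correlated over the remaining 17 rats, with r of 0.72 for Bak1 and Bbc3, 0.83 for Bax and Bak1 and 0.68 for Bax and Bbc3 (adjusted permutation p = 0.0148, 0.00252 and 0.0283). They were 3 of only 4 pairs that passed there. The other 7 pairs of the 10 no longer passed. Bbc3 and Casp8, which over 22 rats had r = 0.76 (permutation p = 6e-05, adjusted 0.00198) and rho = 0.63 (permutation p = 0.00226, adjusted 0.0203), came to r = 0.21 in the 17. Bak1 and Casp8 went from 0.54 to -0.22, Bak1 and Bid from 0.53 to 0.12, Bid and Bbc3 from 0.59 to 0.28, and Bid and Casp8 from 0.52 to 0.27. Within the 6 untreated rats, which include none of the 5, r for these pairs in the same order was 0.64, 0.77, 0.54, 0.71 and 0.80. The groups that include some of the 5 differed for the pairs of Bid. Within the i.p. ASC rats r was 0.88, 0.70, 0.15, 0.053 and -0.0089, and within the i.v. ASC rats 0.84, 0.39, 0.72, 0.79 and 0.75.

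Both negative pairs held Bcl2l1. It correlated with Bak1 at r = -0.64 (permutation p = 0.00143, adjusted 0.0172) and rho = -0.52 (permutation p = 0.0138, adjusted 0.0991), and with Casp8 at r = -0.63 (permutation p = 0.00225, adjusted 0.0174) and rho = -0.45 (permutation p = 0.0373, adjusted 0.149). These did not hold by rho after adjustment, nor within the untreated rats, where r was -0.071 and 0.10. Within the i.p. ASC rats r was -0.40 and -0.57, and within the i.v. ASC rats -0.80 and -0.49. With the group means subtracted r was -0.65 and -0.59 (adjusted permutation p = 0.0119 and 0.0176). Over the 17 rats r was 0.0037 and 0.038, and on log2(TPM + 1) -0.27 and -0.051. Bcl2l1 passed instead with Bid among the 17 rats, at r = 0.64 (adjusted permutation p = 0.0488), against -0.19 over all 22, and without rats 10 and 16 this was 0.34. Bcl2, Mcl1 and Bad passed with no other member, with the largest size of r at 0.37 for each of them. This turned with the scale, since on log2(TPM + 1) Mcl1 had r of 0.64 with Bak1, 0.61 with Bid, 0.60 with Casp8 and 0.58 with Bbc3. On that scale Bcl2 had 0.56 with Bid and 0.56 with Mcl1, and Bad had 0.58 with Bax.

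**Figure D3:**
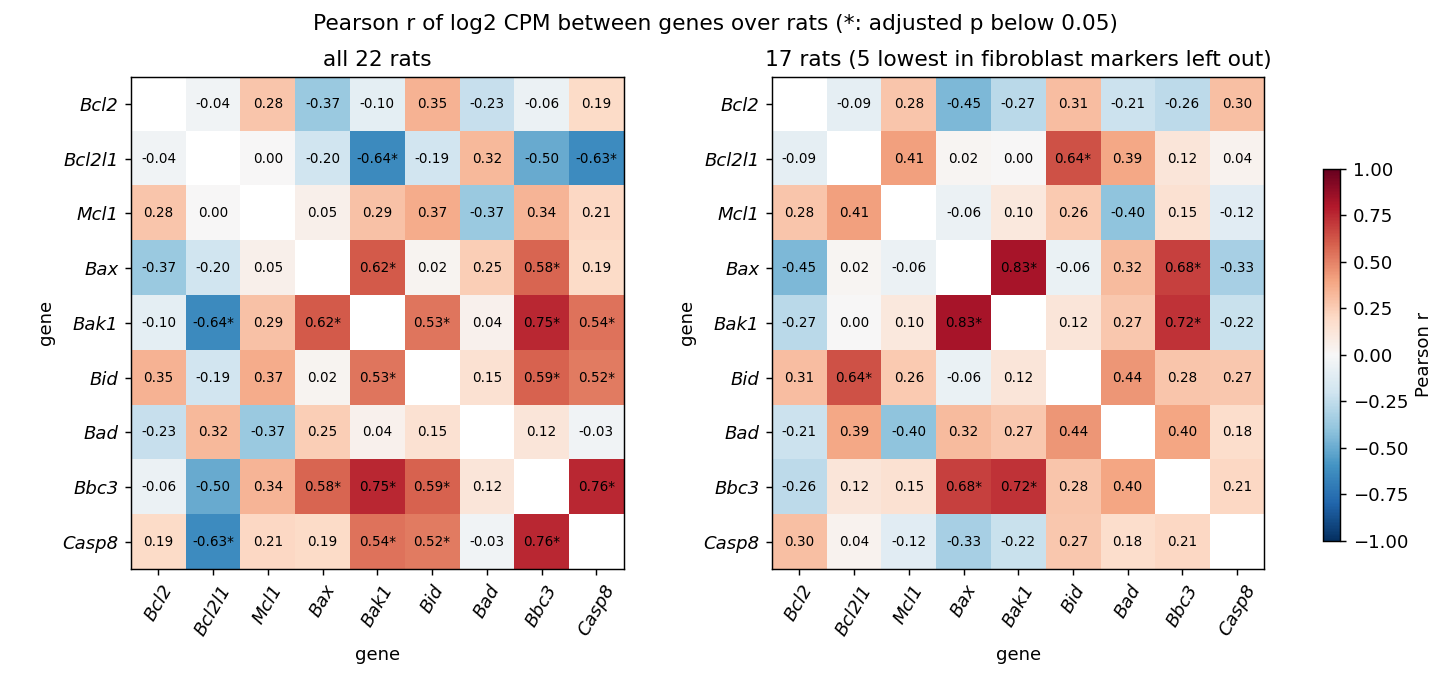
Pearson r of log2 CPM for each pair of the 9 genes, over all 22 rats (left) and over the 17 rats that remain without the 5 lowest in fibroblast markers (right), with a star where the adjusted permutation p is below 0.05. The block of Bax, Bak1 and Bbc3 is starred in both panels, while the stars of Casp8 and the negative stars of Bcl2l1 are in the left panel only.

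**Figure D4:**
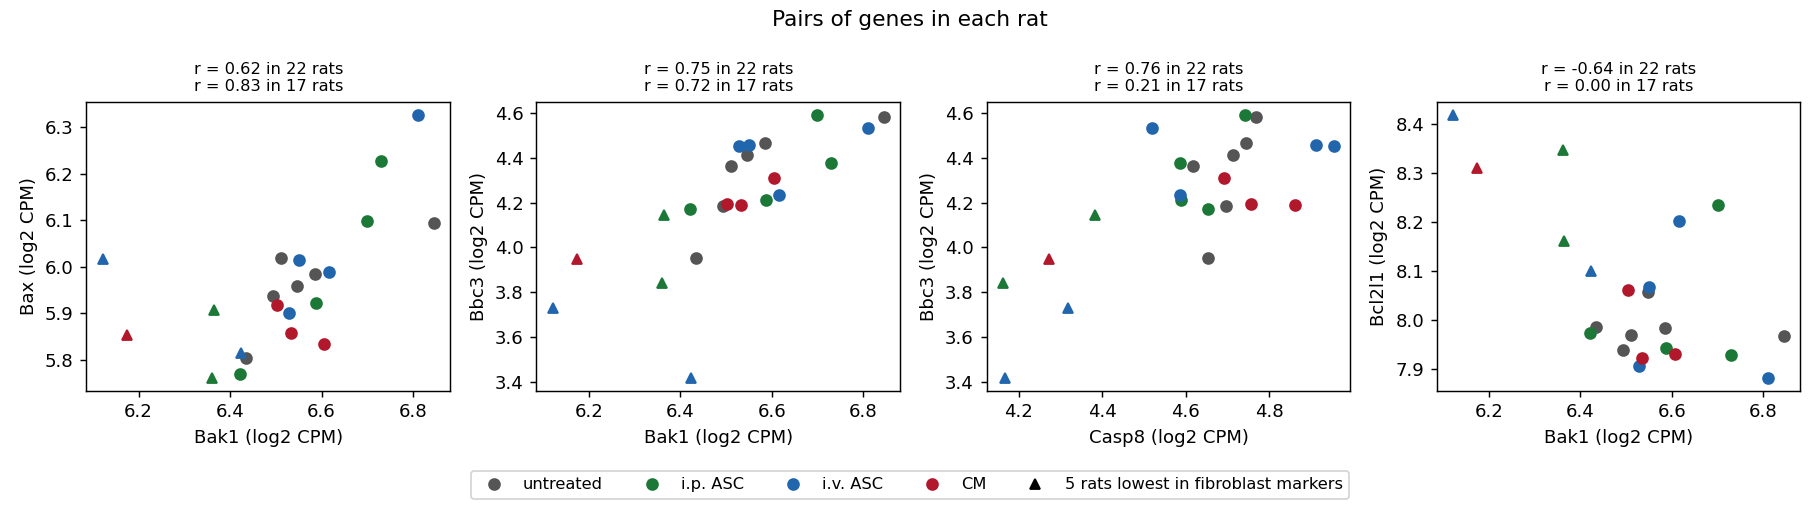
Log2 CPM of 4 pairs of genes with one point per rat, coloured by group, where triangles are the 5 rats lowest in fibroblast markers. The circles rise together in the panels of Bax and of Bbc3 against Bak1 (r = 0.83 and 0.72), whereas against Casp8, and for Bcl2l1, they form no line (r = 0.21 and 0.0037) and the triangles lie apart.

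The members also followed the markers of kidney cell types to different degrees. Of 108 correlations between the 9 genes and the mean log2 CPM of 12 marker lists, 29 passed the permutation test adjusted over the 108, 11 of them negative, and 14 of the 29 also passed by rho. The share of all genes tested that would pass with these lists was not computed, so the count is not shown to be particular to the 9 genes. Without i.v. ASC rat 3 the count was 12 and without CM rat 2 it was 17. Bak1 and Bbc3 each passed with 7 lists, Casp8 and Bcl2l1 with 5 each, Mcl1 with 3, Bax and Bid with 1 each, and Bcl2 and Bad with 0. Bak1 was positively related to leukocyte (r = 0.72) and fibroblast markers (0.66) and negatively to those of the proximal tubule (-0.71). Casp8 had the same signs, at 0.63, 0.67 and -0.60. Bcl2l1 had the opposite ones, at -0.76 and -0.79 for leukocyte and fibroblast markers. Among these lists all 9 leukocyte, 6 fibroblast and 7 proximal tubule genes were measured and none was at 0 in all rats. The summed fibroblast level was 324 to 494 TPM in untreated rats, 201 to 554 TPM after i.p. ASC, 188 to 657 TPM after i.v. ASC and 283 to 747 TPM after CM. The summed leukocyte level was 4417 to 6156 TPM in untreated rats, 3331 to 7947 TPM after i.p. ASC, 1836 to 7247 TPM after i.v. ASC and 3037 to 7939 TPM after CM. For the proximal tubule it was 794 to 2140.3 TPM in untreated rats, 777 to 2984 TPM after i.p. ASC, 1110.2 to 3109 TPM after i.v. ASC and 1691 to 2734 TPM after CM. Their part in the levels of the members was not tested. Over the 17 rats none of these relations passed, with r for fibroblast markers of 0.20 for Bak1, -0.090 for Casp8 and -0.49 for Bcl2l1. For leukocyte markers it was 0.18, 0.085 and -0.33 in the same order, and for proximal tubule markers it was -0.48 for Bak1 and -0.28 for Casp8. The count over 17 rats is not independent of the choice of rats, which used the fibroblast list.

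The relation that passed over 17 rats as well was that of the pore-forming genes to injured tubule markers, a list of 6 genes with Havcr1 (Kim-1), Lcn2 (NGAL), Spp1, Vcam1, Krt8 and Krt18. Bak1 correlated with this list at r = 0.77 (permutation p = 6e-05, adjusted 0.00216) and rho = 0.66 (adjusted permutation p = 0.0223), and Bax at r = 0.72 (permutation p = 0.00027, adjusted 0.00486) and rho = 0.49 (adjusted permutation p = 0.0859). Over the 17 rats r was 0.81 for Bak1 and 0.86 for Bax (adjusted permutation p = 0.00756 and 0.00216), and these were the only 2 of the 108 that passed there. How common such values are with this list among all genes was not computed. I.p. ASC rat 6 and i.v. ASC rat 8 lay farthest from the median of this list. Without them r over the other 20 rats was 0.70 for Bak1 and 0.42 for Bax, so that for Bax a large part of the relation rested on them. Without both the 5 and these 2 rats, r over 15 rats was 0.69 for Bak1 and 0.68 for Bax. Bbc3, the third gene of the core, had r = 0.46 with the list over 22 rats and 0.58 over 17 and passed in neither, but it passed by rho over the 22 rats (rho = 0.57, adjusted permutation p = 0.0475), where Bax did not. The summed level of the 6 markers was 9297 to 15419 TPM in untreated rats, 8493 to 13108 TPM after i.p. ASC, 7287 to 14044 TPM after i.v. ASC and 6879 to 11599.7 TPM after CM.

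The relations of Mcl1 were to podocyte (0.55), endothelium (0.52) and thick ascending limb markers (-0.57). None of the 3 passed over the 17 rats, where r was 0.44, 0.48 and -0.49. Bbc3 passed with endothelium (r = 0.65), proximal tubule (-0.60), fibroblast (0.59), leukocyte (0.59), thick ascending limb (-0.58) and dividing cell markers (0.53). Over the 17 rats these were 0.065, -0.51, 0.031, 0.028, -0.41 and 0.28, and none passed. Endothelium markers also passed with Bak1 (0.52), Casp8 (0.64) and Bcl2l1 (-0.55), but not over the 17 rats (0.065, -0.053 and -0.19). Bbc3 passed as well with urothelial genes (r = -0.63). That value rested on a few i.v. ASC rats, since it was -0.10 without the 2 farthest rats and -0.14 over the 17.

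**Figure D5:**
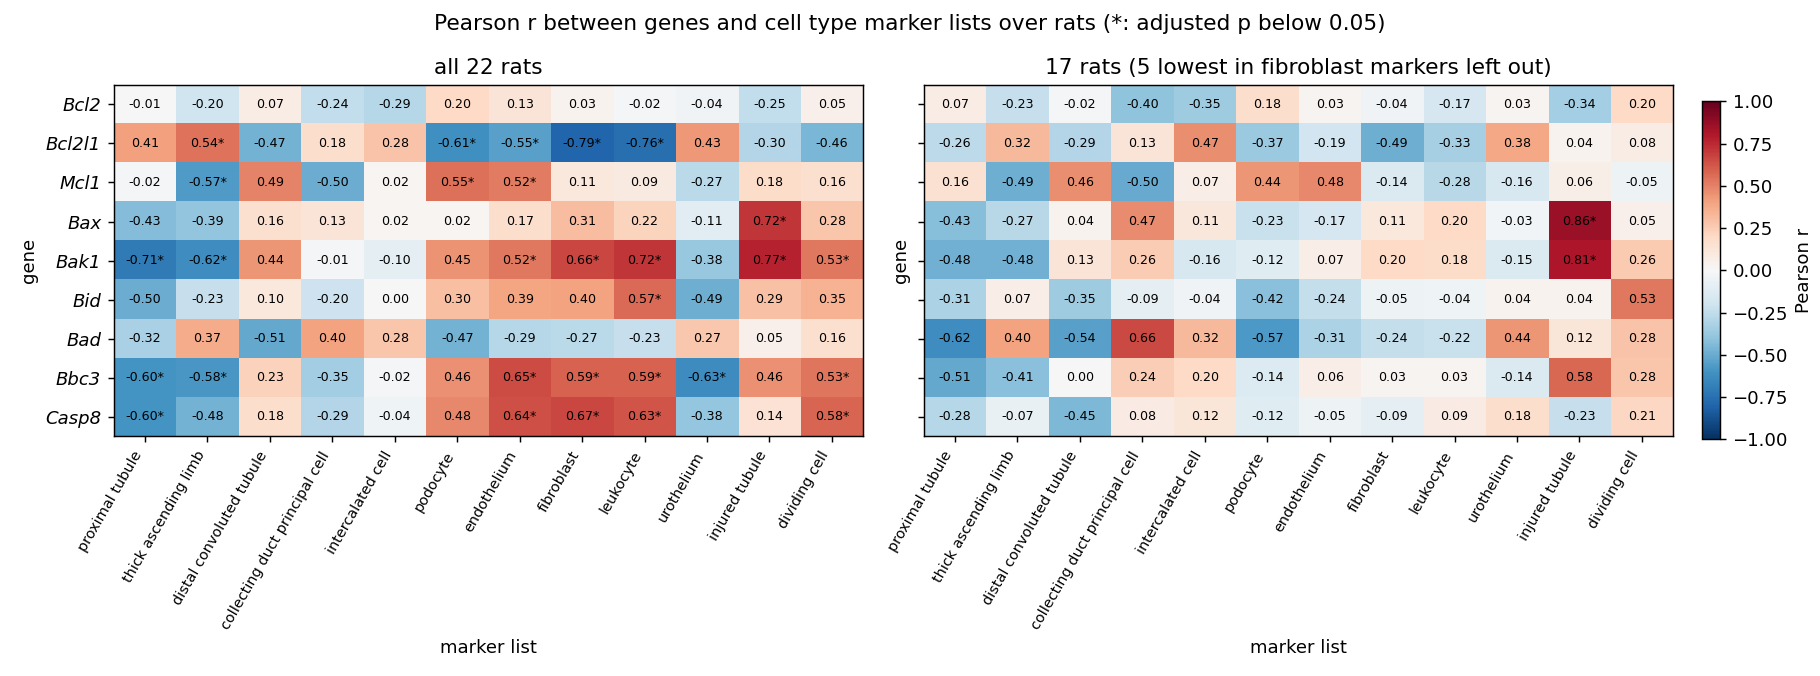
Pearson r between the log2 CPM of each gene (rows) and the mean log2 CPM of each marker list (columns) over all 22 rats (left) and over 17 rats (right), with a star where the adjusted permutation p is below 0.05. Of 29 starred cells on the left, the 2 that are also starred on the right are Bax and Bak1 with injured tubule markers.

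For each member, the 3 genes with the most similar pattern were taken by Pearson r of log2 CPM over the 22 rats, among 9708 genes with a mean of at least 10 CPM, as a description. Mcl1 was most like Nfil3 (0.88), Fosl2 (0.82) and Map3k6 (0.81), of which Nfil3 and Fosl2 are transcription factors of the early stress and cytokine response. Bcl2l1 was most like Herpud1 (0.89), Pim3 (0.88) and Mrpl38 (0.87), where Herpud1 belongs to the unfolded protein response and Pim3 is a survival kinase. Bcl2, the least expressed member, was nearest to Usp34 (0.82), Nsd1 (0.79) and Aff1 (0.78). Of the core genes, Bak1 had the closest neighbours of all, Tagln2 (0.94), Ucp2 (0.93) and Vat1 (0.91), and Tagln2 is an actin-binding protein. Bbc3 was nearest to Tubb5 (0.90), Mvp (0.87) and Cmtm3 (0.85), and Bax to Enoph1 (0.80), Pes1 (0.79) and Nup85 (0.76), with Pes1 being a ribosome assembly factor. Casp8 was nearest to Abr (0.89), Eya2 (0.87) and Maz (0.87), Bid to Parp1 (0.81), Inip (0.79) and Cttnbp2nl (0.77), and Bad to Nans (0.79), Ift22 (0.76) and Mrps27 (0.75). Parp1, the neighbour of Bid, is a DNA damage sensor that caspases cleave. Over the 17 rats the first neighbours of Mcl1, Bak1, Bax and Bcl2 had r of 0.89, 0.85, 0.83 and 0.86, and that of Bad had 0.86. Those of Bcl2l1 and Bbc3 came to 0.72 and 0.69, and those of Casp8 and Bid to 0.57 and 0.56. Genes at the top of so long a ranking are selected for their r, which is therefore too high as an estimate.

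The wider apoptosis machinery was described from a list of 68 genes in 11 roles that includes the 9 members. Of these, 67 were listed and 64 were tested, since Bcl2l10, Bcl2l15 and Casp14 were too low. No gene of the list passed in any comparison. At an unadjusted p below 0.05, 4 of 64 passed after i.p. ASC, 9 after i.v. ASC and 5 after CM, and none of them was a member. The shares of all genes were 3.89%, 8.81% and 6.6%. The median log2 fold changes of the 64 genes were -0.015, -0.043 and -0.044 after i.p. ASC, i.v. ASC and CM, beside -0.014, -0.011 and -0.0029 over all genes. Of the 64, 34, 36 and 40 were below 0 and 30, 28 and 24 above, beside 46.2%, 47.5% and 49.1% of all genes above 0.

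By role, the anti-apoptotic group (5 tested) had medians of 0.029, 0.12 and 0.056, the pore-forming group (3 tested) -0.011, 0.050 and -0.10, and the BH3-only group (8 tested) -0.095, -0.12 and -0.16. Bcl2l2 (Bcl-w) had the smallest unadjusted p of the anti-apoptotic genes after CM, with a log2 fold change of 0.22 ± 0.15 (SE, adjusted p = 0.779). Bok, the third pore-forming gene, had 0.39 ± 0.18 after i.v. ASC (unadjusted p = 0.0419, adjusted p = 0.523). The BH3-only genes outside the member list carried the values of that role furthest from 0. Bcl2l11 (Bim), a strong activator of Bax and Bak1, was at 15.3 ± 3.15 TPM (SD) in untreated rats and 11.1 ± 3.66 TPM after i.v. ASC, with a log2 fold change of -0.36 ± 0.11 (unadjusted p = 0.00395, adjusted p = 0.523). Hrk was low, at 0.797 ± 0.185 TPM in untreated rats, and its log2 fold change was -0.56 ± 0.20 after i.p. ASC and -0.62 ± 0.22 after CM (adjusted p = 0.771 and 0.711). By edgeR none of these passed the threshold.

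Among the caspases, the value furthest from 0 belonged not to Casp8 but to Casp12, a caspase of the endoplasmic reticulum in rodents. Casp12 was at 28.3 ± 6.77 TPM (SD) in untreated rats, 20.9 ± 3.41 TPM after i.p. ASC, 17.4 ± 3.77 TPM after i.v. ASC and 19.8 ± 6.18 TPM after CM. Its log2 fold changes by edgeR were -0.35 ± 0.15, -0.59 ± 0.15 and -0.47 ± 0.17 (SE), with unadjusted p-values of 0.0263, 0.000664 and 0.01 and adjusted p-values of 0.771, 0.341 and 0.711. By DESeq2 the i.v. ASC value was -0.58 (unadjusted p = 0.000113, adjusted p = 0.0573), just above the threshold, so its distance from a call depended on the method. The initiator Casp2 had a log2 fold change of -0.12 ± 0.10 after i.v. ASC, and the initiator Casp9 had one of 0.092 ± 0.10 after CM.

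Downstream of the pore, Cycs (cytochrome c) had the largest log2 fold changes of the list, 0.86 ± 0.39, 0.76 ± 0.39 and 0.83 ± 0.43 (SE, adjusted p = 0.771, 0.523 and 0.711), with a wide spread in treated rats (1132 ± 554 TPM after i.p. ASC against 697 ± 167 TPM untreated, SD). Copies of this gene elsewhere in the genome can share its reads, so the value is uncertain. Upstream of Casp8, the death ligand Tnfsf10 (Trail) had -0.35 ± 0.17, -0.41 ± 0.17 and -0.30 ± 0.19 (adjusted p = 0.771, 0.523 and 0.757). Among p53 and its targets, the group to which Bax and Bbc3 are also counted by function, Cdkn1a (p21) had -0.51 ± 0.18 after CM and Zmat3 -0.16 ± 0.063 after i.v. ASC (adjusted p = 0.711 and 0.523). Of the inhibitors of apoptosis, Birc2 had -0.19 ± 0.075 after CM and Xiap -0.26 ± 0.21 after i.v. ASC (adjusted p = 0.711 and 0.594), and of the other Bcl2 relatives Bcl2l13 had -0.34 ± 0.13 after i.p. ASC (adjusted p = 0.771).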

How the data were processed

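Kidney RNA of 22 rats was grouped by the treatment label. The authors deposited, per rat and Entrez gene, an estimated count without normalization and a TPM value. Per the labels, Trim Galore 0.6.4, kallisto 0.4.6 and the build rn6 were named without role or order, and the methods name DESeq2 with a human transcript package. The annotation is not given in the sources used here. Estimated counts were rounded, since 14.1% were not whole, so reads shared between transcripts or paralogs were split by estimation. Of 17334 identifiers, 17179 matched a RefSeq symbol of GRCr8, used for names. edgeR 4.0.16 in R 4.3.3 (TMM, filterByExpr, quasi-likelihood test, 4 groups in one fit, Benjamini-Hochberg, threshold 0.05) gave the comparisons, and log2 CPM used a prior count of 2. The study's methods use DESeq2, kept as an alternative (DESeq2 1.42.0), beside RLE size factors, no filter, at least 10 counts in every rat, 2 groups in the fit, limma-trend (limma 3.58.1) on TPM, 1 surrogate variable (sva 3.50.0) and the omission of each rat. Correlations used 100000 permutations (NumPy 2.4.6). The step was tested on simulated counts of 12797 genes, with 5 unchanged genes called. Named genes were the 9 members, the gene of smallest unadjusted p per role and comparison, of which the text gives a part, and the 3 most similar genes per member. Members and lists were chosen with earlier results of these data known, and the omission of 5 rats after the data were seen. Groups share the untreated rats. With rats as replicates, p-values measure the spread between these animals.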

Additional observations from a re-analysis of the deposited data

Results flagged for a closer look

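Of the 36 combinations of member and group, 1 held a rat that lay apart from the rest of its group by Dixon's test, and chance alone marks about 1 in 20. Bak1 in untreated rat 1 had a log2 CPM of 6.85, while the remaining 5 untreated rats had 6.44 to 6.59, a gap of 0.635 of the group's range beside a limit of 0.625. Without this rat the log2 fold change of Bak1 was 0.020 after i.p. ASC and 0.0082 after i.v. ASC.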

How the results depend on the processing

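No member passed the threshold in any comparison or in the test among the 4 groups under any of the settings tried, and 0 of the 27 log2 fold changes moved past it. Their signs did change, in 38 of 243 values with another setting and in 26 of 594 with 1 rat left out, all of them near 0. With DESeq2, the log2 fold changes of opposite sign were Bax 0.0027 (i.p. ASC), Bad 0.0063 (CM). With RLE size factors, the log2 fold changes of opposite sign were Bax 0.0026 (i.p. ASC), Bad 0.0065 (CM). With only the compared groups in the fit, the log2 fold changes of opposite sign were Bax 0.0013 (i.p. ASC), Bad 0.008 (CM). With limma-trend on log2(TPM + 1), the log2 fold changes of opposite sign were Mcl1 -0.057, Bid -0.075, Bad -0.062 (i.p. ASC), Bax -0.070, Bad -0.029 (i.v. ASC), Bid -0.027 (CM). With limma-trend on log2(TPM + 0.1), the log2 fold changes of opposite sign were Mcl1 -0.057, Bid -0.078, Bad -0.063 (i.p. ASC), Bax -0.071, Bad -0.029 (i.v. ASC), Bid -0.029 (CM). With 1 surrogate variable, the log2 fold changes of opposite sign were Bax 0.032, Bak1 0.068, Bbc3 0.049 (i.p. ASC), Bak1 0.072, Bbc3 0.0099, Casp8 0.042 (i.v. ASC), Bcl2l1 -0.029, Bak1 0.012, Bbc3 0.0064, Casp8 0.098 (CM). With the 5 rats lowest in fibroblast markers left out, the log2 fold changes of opposite sign were Bax 0.044, Bak1 0.036, Bad -0.010, Bbc3 0.0016 (i.p. ASC), Bak1 0.056, Bid 0.062, Bbc3 0.082, Casp8 0.058 (i.v. ASC), Bcl2l1 -0.0073, Casp8 0.077 (CM). Leaving out each rat in turn gave both signs for Bax i.p. ASC -0.071 to 0.031, Bak1 i.p. ASC -0.083 to 0.020, Bak1 i.v. ASC -0.12 to 0.015, Bad CM -0.049 to 0.040, Mcl1 i.p. ASC -0.035 to 0.086, Bcl2 CM -0.036 to 0.18, Bid i.p. ASC -0.022 to 0.069, Bad i.p. ASC -0.0092 to 0.074, Bax i.v. ASC -0.017 to 0.093, Bcl2l1 CM -0.018 to 0.13, Casp8 CM -0.11 to 0.066, Bid CM -0.022 to 0.12. On the TPM scale with 1 or 0.1 added, the median log2 fold change of all genes was -0.098, -0.12 and -0.066 or -0.11, -0.13 and -0.074, against -0.014, -0.011 and -0.0029, which moves the members with it. Over all genes, DESeq2 called 28 after i.v. ASC and 4 after CM, and 1 was called after CM with only the compared groups in the fit and 1 with the 5 rats left out. Leaving out each rat in turn gave 0 to 14 calls after i.v. ASC (14 without i.v. ASC rat 14, 11 without i.v. ASC rat 8), 0 to 2 after CM and 0 after i.p. ASC. The count of 10 correlated member pairs was 18 on log2(TPM + 1) and log2(TPM + 0.1), 7 with RLE size factors, 4 without the 5 rats and 5 to 11 with each rat left out (5 without i.v. ASC rat 3). The 29 relations to marker lists came to 2 without the 5 rats and to 12 to 34 with each rat left out (12 without i.v. ASC rat 3, 17 without CM rat 2). The cause of these shifts was not tested. No paired analysis was possible because the groups share no replicate numbers. Depth limits Bcl2 most, and the number of rats limits what sizes of change could be called.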
